A study of Mus musculus with 7 samples.

Results

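The kappa light chain V segments (Igkv) are the germline gene segments that code for most of the variable region of the kappa light chain of antibodies. Members were all genes whose GENCODE vM21 symbol starts with Igkv and that had counts in at least 1 library. This gave 112 of the 160 Igkv genes listed in the count table, among 19862 gene identifiers with counts out of 48795 in all. Of the 112, 97 are annotated as functional V genes and 15 as pseudogenes, whereas the 48 Igkv genes without counts were 3 functional genes and 45 pseudogenes. The rule itself used no difference between groups, but it was set with earlier results of these data known. Each segment was analysed as its usage, its share of the summed Igkv counts of a library, and as its expression relative to all genes.

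Bulk RNA sequencing was performed on light zone germinal centre B cells, the antigen-selecting compartment of the germinal centre reaction, sorted from the spleens of mice. The animals of both groups had received sheep red blood cells, a strong T cell-dependent antigen, intravenously, and spleens were taken 10 days later. The genotype label was MIZ1KO for 3 libraries, titled MizFF, and Control for 4 libraries, titled eYFP. MIZ1, encoded by Zbtb17, is a zinc finger transcription factor that partners MYC, and the comparison asks what its loss alters in these cells. The Cre line behind the knockout, its promoter, the meaning of the titles and the age of the mice were not given in the sources used here. The libraries are numbered but not stated to come from separate animals, so p-values measure only the spread between these libraries, which may be technical.

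During B cell development in the bone marrow, recombination joins one Igkv segment to one Igkj segment, and the joined exon is spliced to the constant exon Igkc. Each mature B cell thus transcribes one productive kappa rearrangement as a rule, so the Igkv counts of a bulk library reflect which segments its cells carry and how much kappa mRNA each cell makes. In germinal centres the rearranged V exon undergoes somatic hypermutation, and clones compete for antigen and T cell help, so clonal expansion can shift segment usage without new recombination. In bulk samples, fewer cells that carry a segment and less of its RNA per cell cannot be told apart.

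The 112 segments lie on chromosome 6 of GRCm38 between 67555497 and 70704177, a stretch of 3.15 Mb, and Igkc lies at chr6:70726435-70726966. In GENCODE vM21, 43 of the segments are on the plus strand and 69 on the minus strand. A segment has a short leader exon and the V exon, which encodes the framework regions, the first and second complementarity-determining regions (CDR) and the start of the third. The most used pair, Igkv1-110 and Igkv1-117, is shown first because together they held 18.8% of Igkv counts and their V exons are 96.8% identical. The last 300 bases of the V exon are given 5′ to 3′ from the GENCODE vM21 transcripts on GRCm38, for Igkv1-110 at chr6:68270968-68271267 and for Igkv1-117 at chr6:68121528-68121827, both on the plus strand. Capitals mark the 10 bases that differ between the pair.
Igkv1-110: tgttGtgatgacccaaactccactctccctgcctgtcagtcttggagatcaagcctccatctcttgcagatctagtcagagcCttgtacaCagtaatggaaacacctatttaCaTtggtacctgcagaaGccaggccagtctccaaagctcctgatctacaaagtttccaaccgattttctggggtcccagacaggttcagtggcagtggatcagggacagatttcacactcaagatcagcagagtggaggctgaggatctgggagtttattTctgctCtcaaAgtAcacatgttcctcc
Igkv1-117: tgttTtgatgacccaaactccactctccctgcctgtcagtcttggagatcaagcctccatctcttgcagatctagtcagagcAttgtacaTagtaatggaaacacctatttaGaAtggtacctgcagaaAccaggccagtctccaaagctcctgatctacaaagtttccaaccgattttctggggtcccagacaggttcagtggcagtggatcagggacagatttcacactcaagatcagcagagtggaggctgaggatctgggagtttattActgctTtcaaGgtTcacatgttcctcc

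Igkv5-43 and Igkv5-45 are shown because the most negative usage change of the tested segments belonged to Igkv5-45, whose V exon is 99.0% identical to that of Igkv5-43. The whole V exons of 298 bases lie at chr6:69823355-69823652 and chr6:69775750-69776047, both on the minus strand, and capitals mark the 3 bases that differ. The longest stretch without a difference between them is 193 bases.
Igkv5-43: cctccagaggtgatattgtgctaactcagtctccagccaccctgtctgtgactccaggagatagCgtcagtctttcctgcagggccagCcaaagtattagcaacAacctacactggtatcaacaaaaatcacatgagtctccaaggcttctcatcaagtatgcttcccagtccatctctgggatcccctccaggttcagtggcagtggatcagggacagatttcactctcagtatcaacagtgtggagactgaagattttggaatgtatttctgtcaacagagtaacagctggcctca
Igkv5-45: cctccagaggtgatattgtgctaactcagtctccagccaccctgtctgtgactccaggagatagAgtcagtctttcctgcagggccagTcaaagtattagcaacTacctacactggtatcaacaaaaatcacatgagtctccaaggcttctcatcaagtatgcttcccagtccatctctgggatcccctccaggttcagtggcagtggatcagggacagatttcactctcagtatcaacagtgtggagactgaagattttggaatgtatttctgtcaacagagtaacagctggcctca

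The ends of further V exons are shown for the other segments that the results turn on, since the bases after the conserved cysteine form the germline part of CDR3. Capitals mark the last in-frame cysteine codon. The windows are chr6:68426031-68426072 for Igkv16-104, chr6:67610468-67610508 for Igkv1-135, chr6:67861619-67861659 for Igkv17-127 and chr6:68037278-68037318 for Igkv17-121 on the plus strand. On the minus strand they are chr6:70406469-70406509 for Igkv6-15 and chr6:70314895-70314932 for Igkv8-21.
Igkv16-104: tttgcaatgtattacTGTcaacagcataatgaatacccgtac
Igkv1-135: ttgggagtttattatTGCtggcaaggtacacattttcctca
Igkv17-127: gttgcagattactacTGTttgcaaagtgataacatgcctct
Igkv17-121: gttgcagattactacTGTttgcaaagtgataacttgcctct
Igkv6-15: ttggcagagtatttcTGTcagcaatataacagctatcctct
Igkv8-21: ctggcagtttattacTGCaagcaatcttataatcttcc

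Library totals ranged from 6896673 to 9482453 estimated counts, of which 3087992 to 5085019 lay outside ribosomal RNA. Ribosomal RNA was taken as the genes annotated as rRNA or mitochondrial rRNA, together with the gene Gm26917. Summed Igkv counts were 3233, 4926 and 1920 in MIZ1KO replicates 1 to 3 and 3238, 2264, 1534 and 2764 in Control replicates 1 to 4, so the precision of every share rests on 1534 to 4926 counts. Zbtb17 measured 5.16, 3.70 and 4.50 CPM (counts scaled by TMM-adjusted library size) in MIZ1KO and 3.15, 3.42, 3.15 and 7.02 CPM in Control. The groups overlapped. The count covers the whole gene, deleted or not, so it is no check of the genotype. Of 12 germinal centre B cell markers, all 12 were tested, and Bcl6, the master regulator of germinal centre B cells, was present in every library, from 210 to 297 CPM. The recombinase genes Rag1 and Rag2 had no counts in any library.

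No Igkv segment passed the test for a change in usage between MIZ1KO and Control. The same segments led in both groups: Igkv1-110, Igkv1-117, Igkv16-104, Igkv1-135 and Igkv17-127 were the 5 most used by mean share over the 7 libraries. Of the 60 segments tested, 0 passed an adjusted p of 0.05 for usage in the quasi-likelihood test of edgeR (Benjamini-Hochberg over 11618 genes), against 5.96% of all genes in the same fit (1.91% higher and 4.05% lower in MIZ1KO). In this fit genes other than Igkv were scaled by library size, so the values over all genes describe expression. At an unadjusted p of 0.05, 0 segments passed either, against 24.6% of all genes, and DESeq2 called 0 with 1 at the unadjusted level. The log2 fold changes of usage, MIZ1KO over Control, ran from -1.32 to 1.04, with 30 above 0, 30 below 0 and a median of -0.00, against -0.03 for all genes. Usage is relative to the Igkv sum of each library, so changes balance around 0 partly by construction. The even split is therefore no measure of unchanged usage.

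The precision of these comparisons differed with the abundance of the segment. Among the 27 segments with a mean share of at least 1%, which together held 77.4% of the Igkv counts, the log2 fold changes of usage ran from -0.92 to 0.39. The 95% intervals lay within 1 log2 unit either side of 0 for 12 of the 60 tested segments, and all 12 were among those 27. For 51 of the 60 the interval lay within 2 log2 units, and over all 60 the bounds reached from -2.70 to 2.38. The median standard error was 0.53 for Igkv usage and 0.34 for all genes. A change in usage smaller than these intervals was not detectable with these libraries. The intervals hold the spread between libraries as well as counting error.

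**Figure D1:**
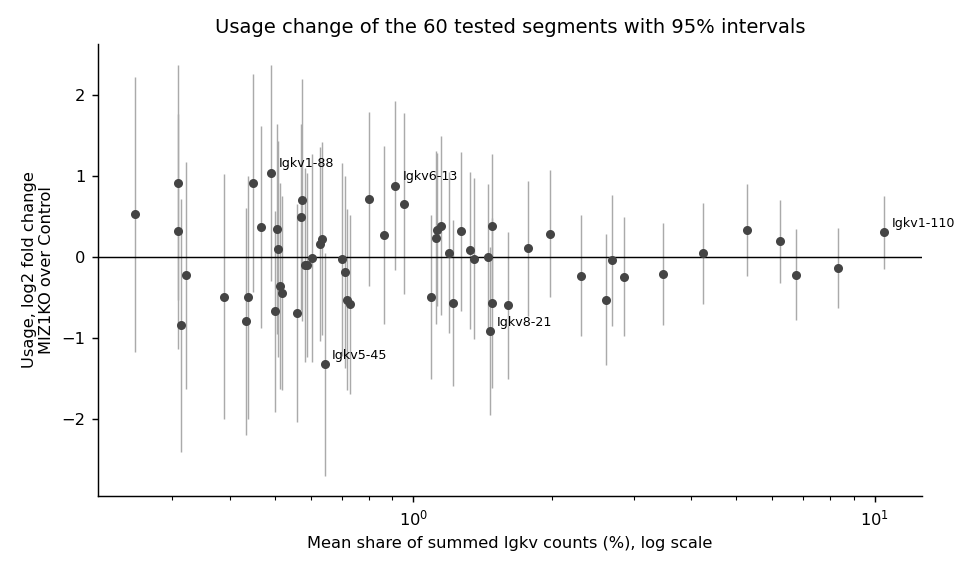
Log2 fold change of usage, MIZ1KO over Control (vertical), against the mean share of summed Igkv counts on a log scale (horizontal) for the 60 tested segments, with 95% intervals from the edgeR fit over 3 MIZ1KO and 4 Control libraries. The points lie on both sides of 0, from -1.32 for Igkv5-45 to 1.04 for Igkv1-88, and the intervals narrow towards the most used segments.

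Igkv1-110 (ENSMUSG00000093861, chr6:68270485-68271267, plus strand) was the most used segment, with a mean share of 10.5%. It took 12.7%, 12.7% and 9.80% of Igkv counts in MIZ1KO replicates 1 to 3 and 10.04%, 8.85%, 9.79% and 9.48% in Control replicates 1 to 4. MIZ1KO replicates 1 and 2 lay above all Control libraries, and MIZ1KO replicate 3 lay among them. The means were 11.7% ± 1.68 (n = 3) and 9.54% ± 0.515 (n = 4, SD), and the log2 fold change of usage was 0.31 ± 0.21 (SE; 95% interval -0.14 to 0.76; adjusted p = 0.398, edgeR). Its counts, from 150 to 626 per library, give exact binomial intervals of 11.6% to 13.9% in MIZ1KO replicate 1 and 8.34% to 11.4% in Control replicate 3, which cover counting error only. Igkv1-110 was the largest segment in 6 of the 7 libraries, and Igkv1-117 took that place in Control replicate 2.

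Igkv1-117 (ENSMUSG00000094335, chr6:68121046-68121827, plus strand) had a mean share of 8.32%. Its shares were 6.45%, 8.94% and 8.28% in MIZ1KO and 8.15%, 9.52%, 7.69% and 9.25% in Control, and the groups overlapped (log2 fold change of usage -0.14 ± 0.23 (SE), adjusted p = 0.770, edgeR). Because the 2 exons share an unbroken run of 142 bases, reads from that run cannot be assigned with certainty, and the sum is the firmer value. Together Igkv1-110 and Igkv1-117 took 19.6% ± 1.82 in MIZ1KO (n = 3) and 18.2% ± 0.532 in Control (n = 4, SD), again with overlap.

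Igkv16-104 and Igkv1-135 followed. Igkv16-104, the only member of its family with counts and 75.3% identical to its nearest relative, took 7.76%, 4.61% and 6.41% in MIZ1KO and 8.56%, 6.23%, 5.80% and 7.92% in Control. The groups overlapped, and the spread within each group exceeded the difference of the means (log2 fold change -0.22 ± 0.27 (SE), adjusted p = 0.668, edgeR). Igkv1-135 took 7.02%, 6.59% and 6.56% in MIZ1KO and 6.39%, 6.32%, 4.89% and 5.75% in Control. All 3 MIZ1KO libraries lay above all 4 Control libraries, but by a margin within the counting error of a single library, and the log2 fold change was 0.19 ± 0.24 (SE, adjusted p = 0.674, edgeR). Summed with Igkv1-133, whose V exon is 96.5% identical, it took 7.07% ± 0.128 in MIZ1KO (n = 3) and 6.34% ± 1.04 in Control (n = 4, SD), and the groups overlapped.

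The close pair Igkv17-127 and Igkv17-121, 98.0% identical, varied from library to library. Igkv17-127 took 5.58%, 6.998% and 5.35% in MIZ1KO and 4.85%, 6.11%, 4.54% and 3.66% in Control. Igkv17-121 took 3.55%, 3.07% and 1.06% in MIZ1KO and 3.31%, 2.499%, 3.42% and 1.98% in Control, so MIZ1KO replicate 3 was the lowest library. Their sum was 8.53% ± 1.90 in MIZ1KO (n = 3) and 7.59% ± 1.33 in Control (n = 4, SD), a difference smaller than the spread within either group. Igkv6-15 was the most used of the proximal segments, at 3.68%, 4.89% and 4.48% in MIZ1KO and 4.14%, 5.30%, 2.67% and 4.52% in Control, and its groups overlapped.

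The other leading segments had mean shares from 2.61% to 3.48%. Igkv14-111 took 3.19% ± 0.313 in MIZ1KO (n = 3) and 3.69% ± 0.481 in Control (n = 4, SD). Igkv10-96 took 2.64% ± 0.725 and 3.02% ± 0.635. Igkv15-103 took 3.37%, 1.34% and 1.51% in MIZ1KO and 2.66%, 3.31%, 3.26% and 2.82% in Control, so replicates 2 and 3 of MIZ1KO were low and replicate 1 was the highest library of all (log2 fold change -0.52 ± 0.39 (SE), adjusted p = 0.430, edgeR). All 3 overlapped between groups. The 10 segments highest by mean share together held 53.4% ± 3.58 of the Igkv counts in MIZ1KO (n = 3) and 52.6% ± 2.92 in Control (n = 4, SD).

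**Figure D2:**
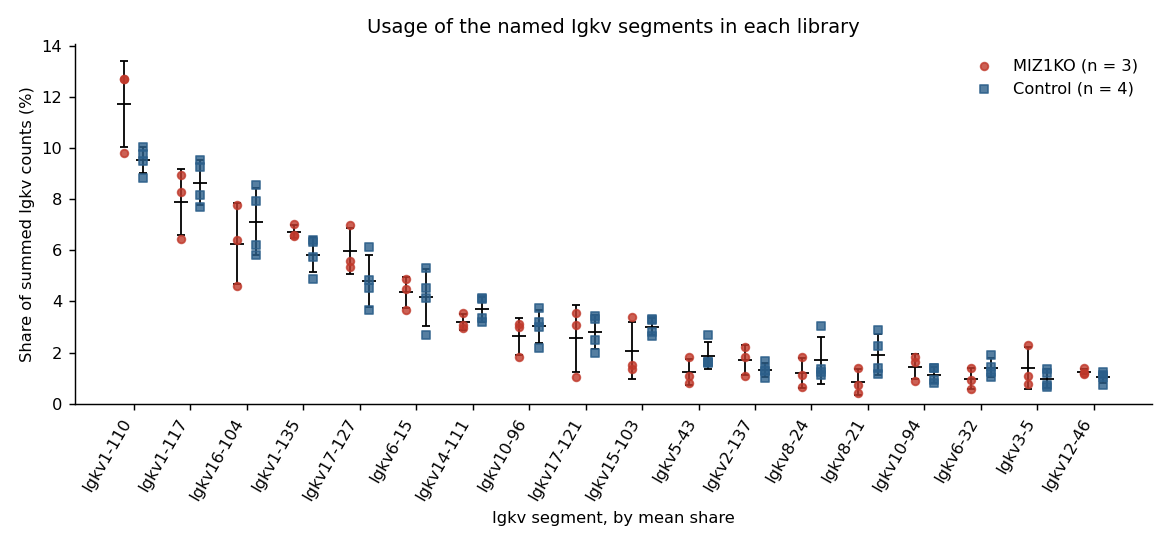
Share of summed Igkv counts in percent (vertical) for the 18 segments named by rule, ordered by mean share (horizontal). Each point is 1 library, circles for MIZ1KO (n = 3) and squares for Control (n = 4), and bars give the mean and SD. Igkv1-110 leads both groups, and Igkv1-135 is the only one of the 18 whose groups do not overlap.

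Among the segments of at least 1%, the most negative change belonged to Igkv8-21, on the minus strand at chr6:70314895-70315472. It took 0.742%, 1.40% and 0.417% in MIZ1KO and 1.14%, 2.25%, 2.87% and 1.41% in Control. MIZ1KO replicates 1 and 3 lay below all Control libraries, whereas replicate 2 lay among them. The log2 fold change was -0.92 ± 0.49 (SE; 95% interval -1.96 to 0.12; adjusted p = 0.261, edgeR), the lowest adjusted p among these 27 segments. Igkv5-43, Igkv8-24 and Igkv6-32 had log2 fold changes of -0.60 ± 0.43, -0.57 ± 0.50 and -0.56 ± 0.49 (SE), and each overlapped between groups. In Igkv8-24 the Control mean of 1.69% rested on replicate 2, at 3.05%, the others lying between 1.12% and 1.37%.

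On the positive side the changes were smaller. Igkv3-5 took 1.08%, 0.752% and 2.30% in MIZ1KO and 0.716%, 0.630%, 1.37% and 1.195% in Control (log2 fold change 0.39 ± 0.53, SE). The MIZ1KO mean rested on replicate 3, and without it the log2 fold change was -0.07. Igkv2-137, the segment farthest from Igkc and the only member whose model overlaps another (Gm42889), had a log2 fold change of 0.38 ± 0.43, Igkv12-46 of 0.34 ± 0.45, Igkv17-127 of 0.34 ± 0.27 and Igkv10-94 of 0.32 ± 0.47 (SE). Each of these 5 overlapped between groups.

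In 4 of the 60 tested segments the shares of the groups did not overlap, 6.67% of those tested. Over all genes in the same fit it was 19.5% (8.71% higher and 10.8% lower), with genes other than Igkv read as expression. Igkv1-135 and Igkv6-13 were higher in MIZ1KO, and Igkv5-45 and Igkv19-93 were lower. Igkv6-13, Igkv5-45 and Igkv19-93 lie outside the naming rule and are given because their count is small. Igkv6-13 took 0.804%, 1.73% and 1.09% in MIZ1KO and 0.741%, 0.707%, 0.782% and 0.543% in Control (log2 fold change 0.88 ± 0.50 (SE), adjusted p = 0.285, edgeR). Igkv19-93 took 0.495%, 0.284% and 0.365% in MIZ1KO and 0.525%, 0.530%, 0.587% and 0.723% in Control (log2 fold change -0.67 ± 0.59 (SE), adjusted p = 0.520, edgeR). None of the 4 passed the test.

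Igkv5-45 had the most negative change of all tested segments. Its shares were 0.808%, 0.0942% and 0.174% in MIZ1KO and 0.915%, 0.856%, 0.8286% and 0.816% in Control, and its log2 fold change was -1.32 ± 0.66 (SE; 95% interval -2.70 to 0.05; adjusted p = 0.222, edgeR). MIZ1KO replicates 2 and 3 were low, resting on 4.64 and 3.34 estimated counts, and MIZ1KO replicate 1 was close to Control. Its sequence differs from that of Igkv5-43 at the 3 capital positions shown above, and the pair together took 2.63%, 1.177% and 0.990% in MIZ1KO and 3.58%, 2.47%, 2.41% and 2.46% in Control. As a sum the groups overlapped through MIZ1KO replicate 1. Among the 20 sets of near-identical segments, 1 sum did not overlap: Igkv3-12 with Igkv3-7, at 1.01% ± 0.198 in MIZ1KO (n = 3) and 1.41% ± 0.115 in Control (n = 4, SD). Over all genes, 19.5% did not overlap in the expression fit. The sets were formed after seeing the data, and their sums were not tested.

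The 52 members that did not pass the filter on low counts, 37 functional genes and all 15 pseudogenes, held 4.15% of the Igkv counts by summed mean share, and none exceeded 0.313%. They entered the shares but no test. Igkv9-123 was the single one of them without overlap: it had 3, 7 and 3 counts in MIZ1KO, shares of 0.0928%, 0.142% and 0.156%, and no counts in Control. A count of 0 allows a share of up to 0.0926% to 0.196% in the Control libraries (3 counts of each library's Igkv total, counting error only), and the difference was not tested. Pseudogenes took 0.537% ± 0.243 in MIZ1KO (n = 3) and 0.405% ± 0.0679 in Control (n = 4, SD), and Igkv4-77 was the most abundant of them, at 0.239%. Over all members, 36 had a mean share under 0.1%, 70 had counts in every library and 16 in 1 library only.

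Relative to all genes, the levels of Igkv segments were more often above 0 than below, but none was called. In the expression fit 0 of 60 segments passed an adjusted p of 0.05 (edgeR), against 5.96% of all genes (1.90% higher and 4.05% lower in MIZ1KO), and the lowest adjusted p was 0.169. The log2 fold change was above 0 for 44 segments and below 0 for 16, with a median of 0.33 against -0.03 over all genes tested. The median stayed above 0 under each scaling, but it was 0.11 without MIZ1KO replicate 2, the library with the most Igkv counts, and 0.09 in limma on the deposited log2 values. At an unadjusted p of 0.05, 3 segments passed, Igkv1-110, Igkv6-13 and Igkv1-88, against 24.6% of all genes, and DESeq2 called 0 with 2 at the unadjusted level. CPM values did not overlap for 5 segments, 8.33% of those tested against 19.5% of all genes, and all 5 were higher in MIZ1KO, as were 8.74% of all genes against 10.8% lower: Igkv4-57, Igkv8-28, Igkv3-5, Igkv10-94 and Igkv14-100.

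Igkv1-110 measured 44.2, 62.5 and 30.2 CPM in MIZ1KO and 42.6, 31.1, 19.7 and 26.3 CPM in Control. MIZ1KO replicate 3 lay among the Control libraries. The log2 fold change of expression was 0.62 ± 0.28 (SE; 95% interval 0.04 to 1.21; adjusted p = 0.179, edgeR). Without Control replicate 1 it was 0.84 with an adjusted p of 0.0497 in edgeR, the one setting in which an Igkv segment was called, and 1350 genes were called in that fit against 692 with all libraries. Without MIZ1KO replicate 2 it was 0.39 with an adjusted p of 0.448 (edgeR). Over the other alternatives the adjusted p of Igkv1-110 ran from 0.12 to 0.296.

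The sum of all Igkv counts followed the same pattern. As a share of the counts outside ribosomal RNA it was 0.0713%, 0.0969% and 0.0622% in MIZ1KO and 0.0783%, 0.0694%, 0.0449% and 0.0591% in Control, with overlap. Igkc, the kappa constant exon, took 0.413%, 0.397% and 0.421% in MIZ1KO and 0.320%, 0.245%, 0.212% and 0.223% in Control. All 3 MIZ1KO libraries lay above all 4 Control libraries, and the log2 fold change of Igkc was 0.72 ± 0.27 (SE, adjusted p = 0.115, edgeR), which did not pass the test. Igkv counts were 18.8% ± 4.98 of Igkc counts in MIZ1KO (n = 3) and 25.1% ± 3.06 in Control (n = 4, SD), and these ratios overlapped.

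Segment diversity overlapped between the groups. The effective number of segments, the number of equally used segments that would give the same Shannon entropy, was 37.9, 38.2 and 41.5 in MIZ1KO and 39.2, 39.7, 43.3 and 41.8 in Control. The means were 39.2 ± 2.01 (n = 3) and 41.0 ± 1.91 (n = 4, SD), and MIZ1KO replicate 3 lay within the range of Control. The inverse Simpson index, which weights the leading segments more, was 23.5 ± 2.28 in MIZ1KO and 25.6 ± 1.98 in Control. It took 8, 8 and 10 segments in MIZ1KO and 9, 9, 11 and 9 in Control to reach 50% of the counts, and 82 to 90 segments had counts in each library. As scores over the members, these measures were not tested.

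The difference in effective number was smaller without Igkv1-110 or, in Control replicate 2, Igkv1-117. With the largest segment of each library left out, it was 42.4 ± 1.08 in MIZ1KO (n = 3) and 42.9 ± 2.18 in Control (n = 4, SD). With each library thinned at random to 1534 counts, the smallest Igkv total, it was 38.6 ± 2.24 and 40.6 ± 2.12 as means of 200 draws. Merging V exons at least 95% identical, which put 51 segments into 20 sets and left 81 classes, gave 25.5 ± 1.94 and 26.5 ± 1.13. Under each of these the groups overlapped.

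**Figure D3:**
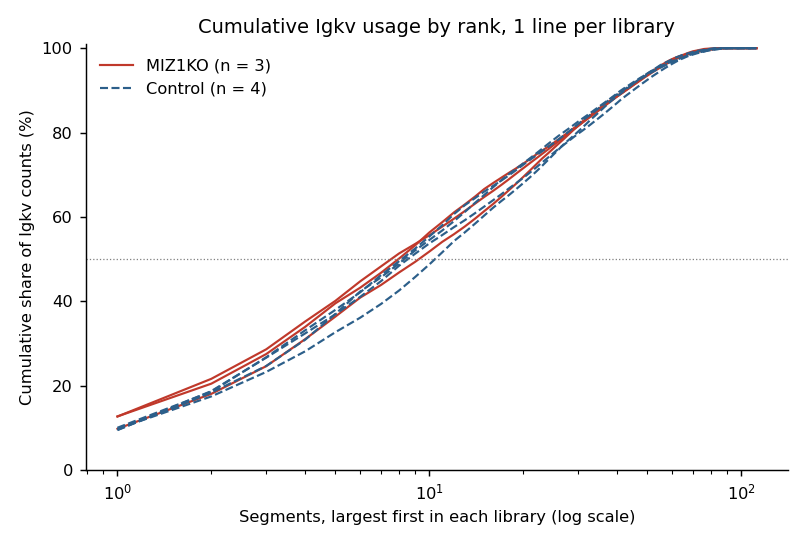
Cumulative share of Igkv counts in percent (vertical) against the number of segments, taken from the largest down in each library, on a log scale (horizontal), with 1 line per library, solid for MIZ1KO and dashed for Control. The dotted line marks 50%, which the libraries reach with 8 to 11 segments, and the lines of the groups run through each other.

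By family, the segments grouped by sequence likeness and named by the number after Igkv, usage kept the same order at the top. Family Igkv1 held 27.2%, 30.4% and 26.2% of Igkv counts in MIZ1KO and 25.4%, 26.9%, 23.5% and 25.5% in Control. Its 8 members were very unequal, since Igkv1-110, Igkv1-117 and Igkv1-135 took nearly all of it and Igkv1-88, the next, had a mean share of 0.492%. Family Igkv6 held 11.7% ± 0.889 in MIZ1KO and 11.6% ± 0.938 in Control. Family Igkv4, the largest with 31 members, held 8.92% ± 1.41 and 8.89% ± 1.10, and its leading segment Igkv4-59 took 15.2% of the family.

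The families in which the means differed most after Igkv1 were Igkv8, at 5.59% ± 0.721 in MIZ1KO (n = 3) and 7.02% ± 1.24 in Control (n = 4, SD), and Igkv2, at 3.56% ± 1.26 and 2.35% ± 0.342. Igkv5 was at 3.52% ± 0.516 and 4.69% ± 0.662. Each overlapped between groups. Of the 19 families with counts, 1 did not overlap: Igkv19, which consists of Igkv19-93 alone. Over all genes, 19.5% did not overlap in the expression fit, and family shares were not tested. Families Igkv7, Igkv11 and Igkv18 held under 0.1% each, on mean share.

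**Figure D4:**
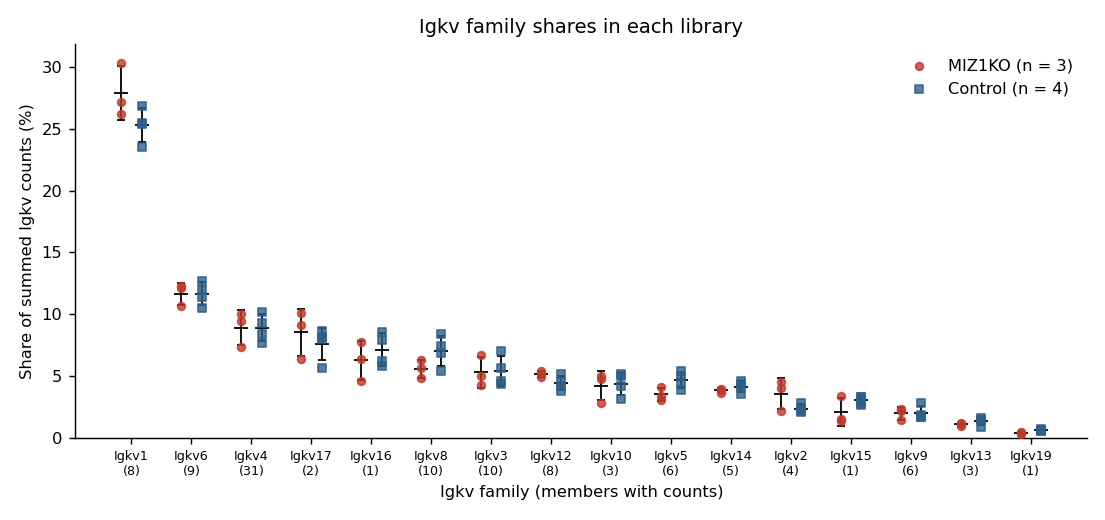
Share of summed Igkv counts in percent (vertical) for each Igkv family with a mean share of at least 0.1% (horizontal, number of members with counts in brackets). Points are libraries, circles for MIZ1KO (n = 3) and squares for Control (n = 4), with mean and SD. Igkv1 leads in all 7 libraries, and Igkv19 is the one family without overlap.

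Usage was concentrated in the part of the locus farthest from Igkc in both groups. The locus was divided into 3 equal stretches by distance from Igkc. The distal stretch, with 29 members, held 54.0% ± 2.65 of Igkv counts in MIZ1KO (n = 3) and 51.6% ± 2.31 in Control (n = 4, SD). The middle stretch, with 38 members, held 15.4% ± 2.31 and 15.6% ± 2.29, and the proximal stretch, with 45 members, 30.6% ± 2.11 and 32.8% ± 1.495. All 3 overlapped between groups. Of the 10 most used segments, 8 lie in the distal stretch and 8 on the plus strand. The plus-strand segments held 60.9% ± 1.67 in MIZ1KO and 58.8% ± 1.34 in Control.

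Usage along the locus was uneven from one segment to the next. Over the 97 functional members, Spearman's rho of mean share with distance from Igkc was 0.04, with exonic length -0.11 and with the GC content of the V exon -0.28. These are descriptions across segments counted in the same 7 libraries. The motif AGCT, a known hotspot of somatic hypermutation that reads the same on both strands, occurs in the V exon of 83 of the 97 functional members (85.6%) and in 8 of the 10 most used, a similar share.

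**Figure D5:**
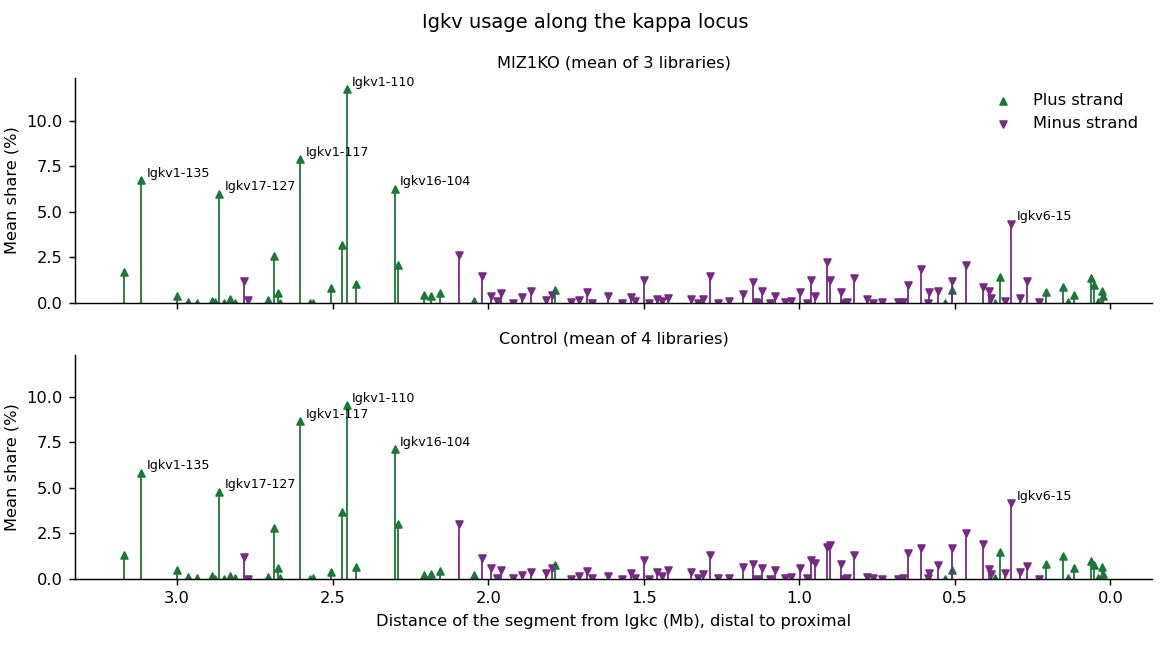
Mean share of summed Igkv counts in percent (vertical) against the distance of each of the 112 segments from Igkc in Mb (horizontal, distal at the left), for MIZ1KO above (mean of 3 libraries) and Control below (mean of 4 libraries). Upward triangles are plus-strand and downward triangles minus-strand segments. The tall plus-strand segments stand at the same places in both panels.

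As whole profiles, libraries of different groups were about as alike as libraries of 1 group. The Bray-Curtis distance of the shares, 0 for identical usage and 1 for no shared segment, averaged 0.171 over the 3 pairs within MIZ1KO, 0.165 over the 6 pairs within Control and 0.174 over the 12 pairs between groups. Single pairs ranged from 0.134 to 0.196. Spearman's rho over segments lay between 0.825 and 0.914 for the 21 pairs. The chi-square per degree of freedom of the counts was 2.55 to 5.41 within groups and 3.06 to 5.87 between groups. For a given difference in shares this value grows with the counts, so the ranges also reflect depth. Both upper ends came from pairs with MIZ1KO replicate 2, the library with the most Igkv counts. Every pair thus differed by more than counting error, including the pairs of 1 genotype, and no library repeated another.

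The genes that act on the kappa locus were read from a list of 15 regulators of kappa transcription and rearrangement. Of the 13 tested, 1 rose and 0 fell (edgeR, against 5.96% of all genes), and Rag1 and Rag2 were at 0. The list was chosen with earlier results of these data known, so this count is a description. The gene that rose was Spi1, which encodes PU.1, a factor that binds the kappa 3′ enhancer. It measured 47.9, 48.0 and 54.2 CPM in MIZ1KO and 31.6, 28.0, 24.7 and 30.6 CPM in Control (log2 fold change 0.80 ± 0.21 (SE), adjusted p = 0.036, edgeR). All 3 MIZ1KO libraries lay above Control. Spi1 is also expressed in myeloid cells. The 8 myeloid markers summed to between 54.5 and 98.6 CPM in MIZ1KO and between 38.1 and 56.5 CPM in Control, with 4 of the 8 tested and none called. Cst3 made up most of that sum, at 48.6, 68.9 and 41.8 CPM in MIZ1KO and 47.6, 35.6, 25.7 and 29.8 CPM in Control. Lyz2 was at 2.04, 13.5 and 16.4 CPM in MIZ1KO and 2.75, 2.96, 3.54 and 3.51 CPM in Control (log2 fold change 1.68 ± 0.54 (SE), adjusted p = 0.071, edgeR), with overlap. The part of myeloid cells in the Spi1 result was not tested. The most abundant gene of the kappa list, the coactivator Pou2af1, had a log2 fold change of 0.11 ± 0.25 (SE).

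Of 12 genes of somatic hypermutation, the process that alters the V exons shown above, all tested, 1 rose and 0 fell, against 5.96% of all genes (1.90% higher and 4.05% lower). This was Supt5, a transcription elongation factor, at 61.0, 52.0 and 53.4 CPM in MIZ1KO and 19.1, 30.02, 30.7 and 28.6 CPM in Control (log2 fold change 1.03 ± 0.22 (SE), adjusted p = 0.017, edgeR). The groups did not overlap. This list too was chosen with earlier results of these data known, so its count is a description.

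Markers of other cells were read beside these values because plasma cells hold much kappa mRNA. Of 10 plasma cell markers 7 were tested and 0 called, with a median log2 fold change of 0.29. Their summed level was 333 to 513 CPM in MIZ1KO and 328 to 674 CPM in Control. Jchain, which links secreted antibody chains, was at 84.4, 127 and 70.0 CPM in MIZ1KO and 270, 197, 105 and 132 CPM in Control (log2 fold change -0.90 ± 0.29 (SE), adjusted p = 0.070, edgeR), with overlap. Txndc5, a disulfide isomerase of the endoplasmic reticulum, lay the other way, at 84.1, 80.2 and 84.8 CPM in MIZ1KO and 56.8, 48.4, 45.9 and 63.9 CPM in Control (log2 fold change 0.62 ± 0.20 (SE), adjusted p = 0.066, edgeR), without overlap. Irf4, Derl3 and Prdm1 also had log2 fold changes above 0, at 0.51, 0.38 and 0.29, and Xbp1 and Mzb1 below 0, at -0.11 and -0.33. Sdc1 was at or below 2.498 CPM and Tnfrsf17 at or below 0.13 CPM in every library. The 9 T cell markers, of which 2 were tested and 0 called, summed to 42.3 to 51.0 CPM in MIZ1KO and 27.3 to 33.4 CPM in Control, without overlap. Lck made up most of that sum, at 40.4, 35.4 and 30.9 CPM in MIZ1KO and 32.7, 30.6, 24.7 and 30.4 CPM in Control. Without Lck, a sum added after seeing the data, the other 8 gave 1.93, 13.4 and 20.1 CPM in MIZ1KO and 0.787, 1.71, 2.62 and 2.91 CPM in Control, and the groups overlapped through MIZ1KO replicate 1. Cd3e, a CD3 chain gene of the T cell receptor complex, was at 0.645, 3.10 and 8.37 CPM in MIZ1KO and at or below 0.401 CPM in Control. None of the 9 markers was at 0 in all libraries. The part of these cells in the Igkv values was not tested.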

How the data were processed

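Polyadenylated RNA of 7 libraries, 3 MIZ1KO and 4 Control, was sequenced, and the groups follow the genotype label. The authors deposited expected counts per gene, not normalized, and a table of log2 values whose name speaks of variance stabilisation. The names STAR 2.5.2, RSEM 1.3.0, DESeq2 1.18.1, R 3.4.3 and GRCm38 are given per the submitters' processing notes, without role or order. The sources used here do not say how strand was set, nor how reads shared by several segments, spanning the joint with Igkj or carrying mutations were counted. The split of counts among near-identical V exons is uncertain. Of the Igkv values, 17.3% were not whole.

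Segments, classes, positions and sequences came from GENCODE vM21. The members and the gene lists were chosen with earlier results of these data known. Shares used the counts as deposited. For tests, counts were rounded, filtered with filterByExpr, scaled by TMM and compared by edgeR 4.0.16 (quasi-likelihood F-test, two-sided; R 4.3.3), with Benjamini-Hochberg adjustment over 11618 genes. In the usage fit the Igkv genes had the log of the library's summed Igkv counts as offset in place of the library size. Both fits were tested on simulated data with large changes in well-counted genes, which does not measure their power for smaller changes or rarer segments. Shares carry exact 95% Clopper-Pearson intervals, and SD is the spread over the libraries of a group.

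Segments named are the 10 with the highest mean share, the largest of each library, any with an adjusted p under 0.05 and, among those of at least 1% mean share, the 5 highest and the 5 lowest log2 fold changes of usage, 18 in all. From each gene list, members past the threshold and the 3 most abundant could be named; other marker genes were named after their values were seen. Alternatives were DESeq2 1.42.0, limma 3.58.1 on the deposited log2 values, other scalings, filters and denominators, a replicate block, and leaving out each library in turn. The labels do not say that a replicate number pairs libraries, so the block is an alternative only. The correlations across genes of the deviations of same-numbered libraries were 0.02, 0.11 and 0.23. Differently numbered libraries were not compared in this way, so these values cannot decide whether libraries were paired.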

Additional observations from a re-analysis of the deposited data

Results flagged for a closer look

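In 4 of 42 sets of Control values examined, a library stood apart from the other 3 by more than the 95% critical value of Dixon's gap test, where chance gives about 1 in 20. The share of Igkv5-43 was 2.67% in Control replicate 1 and 1.58% to 1.64% in the others. The share of Igkv8-24 was 3.05% in Control replicate 2 and 1.12% to 1.37% in the others. The Igkv9 family held 2.80% in Control replicate 3 and 1.68% to 1.81% in the others. It took 11 segments to reach 50% of the Igkv counts in Control replicate 3 and 9 in each of the others. Control replicate 3 was also the library with the fewest Igkv counts, 1534. The 3 MIZ1KO libraries are too few for this test.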

How the results depend on the processing

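The count of Igkv segments called was 0 for usage under each alternative run, and 0 for expression except without Control replicate 1; leaving out each library in turn gave 0 to 1. The difference in effective number, MIZ1KO minus Control, was -1.81 and ran from -2.97 to -1.05 with each library left out, and the families without overlap numbered 1 to 4. The excess of between-group over within-group distance was 0.0073 and ran from 0.0018 to 0.0156 with each library left out. The merging at 95% identity and the left-out libraries for the distances were added after seeing the data. With the replicate block, 0 segments were called in either fit and 476 genes in all for expression, against 692 without it. No Igkv segment was called without the block either, so it had no call to end. DESeq2 called 1094 genes, the legacy fit 468, with 0 Igkv segments in both.

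Of 522 alternative values of the 18 named segments, 500 kept direction and side of the threshold, 1 newly passed and 21 changed sign; the cause was not tested. The expression log2 fold changes that changed sign did so when a library was left out, with these ranges over the left-out libraries: Igkv1-117 -0.13 to 0.41, Igkv16-104 -0.15 to 0.32, Igkv14-111 -0.17 to 0.35, Igkv10-96 -0.048 to 0.22, Igkv17-121 -0.0032 to 0.67, Igkv5-43 -0.51 to 0.15 and Igkv8-24 -0.43 to 0.25. The replicate block gave -0.027 for Igkv17-121. For usage the ranges were -0.082 to 0.17 for Igkv6-15, -0.41 to 0.019 for Igkv10-96, -0.30 to 0.25 for Igkv17-121 and -0.068 to 0.76 for Igkv3-5, and Igkv17-121 was at 0.0003 with the largest segment left out of the denominator. The median log2 fold change of all genes moved by over 0.1 under DESeq2 (-0.15) and with no low-count filter (-0.14). Summed Igkv counts of 1534 to 4926 limit the shares.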

Other observations

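Heavy chain V segments (Ighv) were read in the same way. The effective number over the 130 Ighv genes with counts was 52.2, 49.9 and 51.4 in MIZ1KO and 45.9, 52.1, 49.4 and 48.2 in Control, and the groups overlapped. The means were 51.2 ± 1.17 (n = 3) and 48.9 ± 2.58 (n = 4, SD), so the Ighv mean was higher in MIZ1KO and the Igkv mean higher in Control, each by less than the range of Control.

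Of the lambda light chain genes, Iglc1 measured 100.8, 157 and 98.8 CPM in MIZ1KO and 180, 119, 81.5 and 91.3 CPM in Control (log2 fold change 0.02 ± 0.26, SE), and Iglc3 had a log2 fold change of -0.03 ± 0.28 (SE). The groups overlapped in both. The joining segments Igkj1 to Igkj5 and Iglj1 to Iglj3 had no counts in any library. Of 12 germinal centre B cell markers, 1 rose and 1 fell, against 5.96% of all genes (1.90% higher and 4.05% lower). The marker list was chosen with earlier results of these data known, so this count is a description. Cd79a, the signalling partner of the B cell receptor, rose (669 ± 84.2 against 368 ± 60.8 CPM in Control, SD over 3 and 4 libraries; log2 fold change 0.86 ± 0.22 (SE), adjusted p = 0.033, edgeR), and Rgs13 fell (log2 fold change -1.32 ± 0.32 (SE), adjusted p = 0.023, edgeR).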
